A study of Mus musculus with 8 samples.

Results

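The cytosolic ribosomal protein genes encode the protein part of the ribosome that translates nuclear messenger RNA. They were taken by symbol: Rpl or Rps followed by digits and at most 1 letter, plus Rplp0, Rplp1, Rplp2 and Rpsa, without pseudogene symbols ending in -ps and without the S6 kinases. The rule found 80 genes of 31053 in the tables (0.258%), of which 31 belong to the small subunit and 49 to the large subunit. It left out 15 similar symbols: 9 end in -ps, and the other 6 are Rpl22l1, Rpl36al, Rpl7l1, Rps19bp1, Rps27rt and Rps3a1. The rule itself uses symbols and no measured value, though this family was taken up with earlier results of these data known.

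The samples were cells of mouse colonic lamina propria enriched for CD4+ T cells with a magnetic kit, and single-cell RNA libraries were made in droplets (10x Genomics, 3' ends). Transcripts were counted as unique molecular identifiers (UMIs). There were 8 libraries in 4 groups of 2, and each title carries its own number, read here as an animal number. The groups were untreated wildtype mice, untreated mutant mice, wildtype mice given dextran sulfate sodium (DSS, a chemical that injures the colon epithelium) and mutant mice given DSS. All mice were C57BL/6, 10 to 12 weeks old and kept free of specific pathogens. DSS mice drank 2% DSS for 7 days and plain water for 3 days, untreated mice drank plain water for 10 days, and all were harvested on day 10. The mutant is named S203AKI in the titles, RORgtS182 in the protocol and RORgtS182A in the design text, which reads as a knock-in allele of the Th17 transcription factor RORgt. Its zygosity and the sex of the mice are not given in the sources used here. The study asked what DSS changes in wildtype mice and what the allele changes in untreated and in DSS mice.

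Ribosomal proteins are made in near equal amounts and assembled with ribosomal RNA in the nucleolus. Their messenger RNAs carry a 5' terminal oligopyrimidine (TOP) tract, which begins with a C followed by pyrimidines. Through it, mTORC1 and LARP1 control their translation and stability together. Resting lymphocytes hold a pool of these messenger RNAs while making little protein, and activation raises their use. Because the genes are so abundant, their share of all transcripts also moves with everything else that a cell transcribes.

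Of the 100673 deposited barcodes, 96721 held at least 400 genes and under 20% mitochondrial UMIs. Some barcodes recurred: 1088 sequences occurred in more than 1 library among 95624 distinct ones. Cells on the authors' cell list that fell in T cell clusters are called CD4 T cells here (20735 cells, 1773 to 3757 per library, with 6137881 to 14931521 UMIs per library and 1946.5 to 2880 UMIs in the median cell). The T cell marker list summed to between 2943 and 4013 CPM (UMIs per 1000000 UMIs of the library's cells of that population) in them, the macrophage list to between 77.63 and 304, the plasma cell list to between 259 and 926.3 and the B cell list to between 4.31 and 15.91. Other populations were found by clustering without the ribosomal protein genes and are named "-like" after their markers. T cell populations hold only the cells of their clusters that are on the authors' list, each with Cd4 UMIs. So naive-or-central-memory-like cells are 992 of 5113 barcodes and Th17-like cells 3645 of 9245. Populations other than T cells hold every barcode of their clusters that passed the filters.

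The promoters were searched for pyrimidine runs at the start site and for known promoter letters. RefSeq windows (GRCm38.p6, 250 bases before to 50 after the start) matched 60 of the 80 genes. A run of at least 8 pyrimidines within 30 bases of the start stood in 34 of the 60 (56.7%) and in 25.8% of the windows of all 27025 genes. The ETS-type letters CCGGAAG were in 25 of the 60 windows (41.7%) against 9.93% of all, and TCTCGCGA in 10 (16.7%) against 1.13%, on either strand. GGGCGG was in 60% against 38.2% and TATAAA in 10.0% against 15.7%. These are matches of letters in a window, not binding sites. The windows below run from 60 bases before to 20 bases after the start, 5' to 3' on the gene's strand, with the longest pyrimidine run in capitals (1 of 2 equally long runs in Rpl12 and Rps27l). They are shown for the 7 genes on which the later results turn most.
Rpl12, chr2:32961652-32961731 (+): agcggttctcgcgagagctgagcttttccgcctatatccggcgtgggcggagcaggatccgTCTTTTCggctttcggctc
Rps15a, chr7:118116128-118116207 (-): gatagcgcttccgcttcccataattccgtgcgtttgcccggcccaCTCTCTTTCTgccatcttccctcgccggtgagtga
Rpl15, chr14:18270967-18271046 (-): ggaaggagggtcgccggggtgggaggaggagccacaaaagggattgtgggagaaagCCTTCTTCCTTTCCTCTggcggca
Rpl28, chr7:4792905-4792984 (+): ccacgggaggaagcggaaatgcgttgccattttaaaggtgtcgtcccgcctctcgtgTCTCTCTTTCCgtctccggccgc
Rpl35, chr2:39005112-39005191 (-): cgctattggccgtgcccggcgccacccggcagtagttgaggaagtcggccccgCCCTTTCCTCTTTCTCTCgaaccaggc
Rps27, chr3:90213629-90213708 (-): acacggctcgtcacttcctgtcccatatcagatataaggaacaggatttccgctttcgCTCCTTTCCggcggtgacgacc
Rps27l, chr9:66946026-66946105 (+): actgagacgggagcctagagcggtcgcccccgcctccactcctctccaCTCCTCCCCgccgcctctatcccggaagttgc
The longest run was 7 bases in Rpl12, 9 in Rps27 and Rps27l, 10 in Rps15a, 11 in Rpl28, 17 in Rpl15 and 18 in Rpl35. Over the matched ribosomal protein genes the median longest run was 9 bases, and over all windows it was 6.

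Rpl10l, Rpl3l and Rpl39l were at or near 0. Rpl10l, the testis paralogue of Rpl10, had 0 UMIs in every population. Rpl3l, the striated muscle paralogue of Rpl3, had 0 UMIs in CD4 T cells and 23 in macrophage-like, 10 in fibroblast-like, 5 in dendritic-like and 5 in neutrophil-like cells. Rpl39l, a paralogue of Rpl39, had 90 UMIs in all CD4 T cells and passed the filter on low counts only there. So 78 genes were tested in CD4 T cells and 77 elsewhere. The most counted were Rps24 (395601 UMIs in CD4 T cells), the stalk protein gene Rplp1 (366849) and Rpl13 (365721). Counts between genes were not compared as levels, since reads of many ribosomal protein genes can also match processed copies elsewhere in the genome. Rpl27 (36886 UMIs), Rpl13a (23109) and Rps27l (10998) had fewer.

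A library stood apart in which ribosomal protein genes it held. In CD4 T cells, DSS mutant replicate 2 had the highest fraction of the ribosomal protein UMIs among the 8 libraries for 16 genes and the lowest for 28, of 77 genes with at least 1000 UMIs. Its log2 difference from the median library was over 0.3 for 12 genes, among them Rps28 (0.595), Rpl41 (0.522), Rpl38 (0.508), Rps29 (0.474), Rpl39 (0.408) and Rps26 (0.364). It was low for Rpl10 (-0.399), Rpl15 (-0.379) and Rpl13a (-0.353), genes that were also low in DSS wildtype replicate 2 (-0.571, -0.328 and -0.211). For 9 genes it was the highest library in all 15 populations compared. The genes highest in it encode short proteins, with a median of 94.5 codons against 152 for all. Spearman's rho between coding length and the difference from the median library was -0.576 across genes in DSS mutant replicate 2. It was 0.712 in DSS wildtype replicate 1 and -0.469 in untreated wildtype replicate 1. Untreated mutant replicates 1 and 2 had -0.458 and 0.471, and DSS mutant replicate 1 had 0.471. Untreated wildtype replicate 2 had 0.0124 and DSS wildtype replicate 2 had -0.106. DSS wildtype replicate 2 was also apart, with Rpl27 highest there in all 15 populations (0.80 above the median in CD4 T cells) and Rpl35 (-0.641) low. What made these libraries differ was not tested. Where a result below turned on one of them, its value without that library is given.

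The share of UMIs in ribosomal protein genes differed several-fold between populations. It was highest in naive-or-central-memory-like T cells, at 33.1% ± 3.62 (SD, n = 8 libraries, 992 cells). These cells are called naive-like below. Squamous-epithelium-like cells had 29.2% ± 2.2 (n = 4, DSS libraries only). B-like cells had 28.2% ± 2.08 (n = 8), Tfh-like cells 24.1%, Th1-like cells 22.5% and CD4 T cells as a whole 22.1% ± 1.19. The Th1-like cluster was led by Ccl5, Nkg7 and Il12rb2. Its log2 ratio was 1.98 for the Th1 marker list and 1.19 for the CD8 or gamma-delta list. Treg-like cells had 19.1% ± 0.887 and Th17-like cells 19.0% ± 1.05. Fibroblast-like cells had 15.1% ± 0.466, macrophage-or-monocyte-like cells 11.8% ± 0.603 and plasma-like cells, which make and export antibody, 9.71% ± 0.757. Neutrophil-like cells were lowest at 5.43% ± 0.865 (n = 4). A lower share can come from fewer ribosomal protein transcripts or from more of other transcripts, which a share alone does not tell apart. The median plasma-like cell had 6730 to 11546 UMIs per library and the median B-like cell 1387 to 1917.5. Ribosomal protein UMIs per cell were not compared.

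Larger gaps in this order held in every library, while many neighbouring steps did not. The naive-like share was above the Th17-like share in 8 of 8 libraries, by 14.07 ± 3.395 percentage points (SD). Tfh-like cells were above Th17-like cells in 8 of 8, by 5.11 ± 0.797 points, and Th1-like cells by 3.48 ± 1.53 points, also in 8 of 8. B-like cells stood above plasma-like cells, into which they can differentiate, in 8 of 8 by 18.52 ± 2.278 points. CD4 T cells stood above macrophage-like cells by 10.37 ± 1.139 points and above fibroblast-like cells by 7.08 ± 0.782 points, again in 8 of 8. Some neighbours were not separated: Treg-like and Th17-like cells differed by 0.0677 ± 0.974 points (Treg-like higher in 5 of 8) and smooth-muscle-like and macrophage-like cells by 0.288 ± 0.937 points (5 of 8). Naive-like and squamous-epithelium-like cells differed by 0.791 ± 3.15 points in the 4 DSS libraries that held both, with the naive-like share higher in 2. Squamous-epithelium-like cells were above B-like cells in 3 of the 4, by 2.72 ± 2.48 points.

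**Figure D1:**
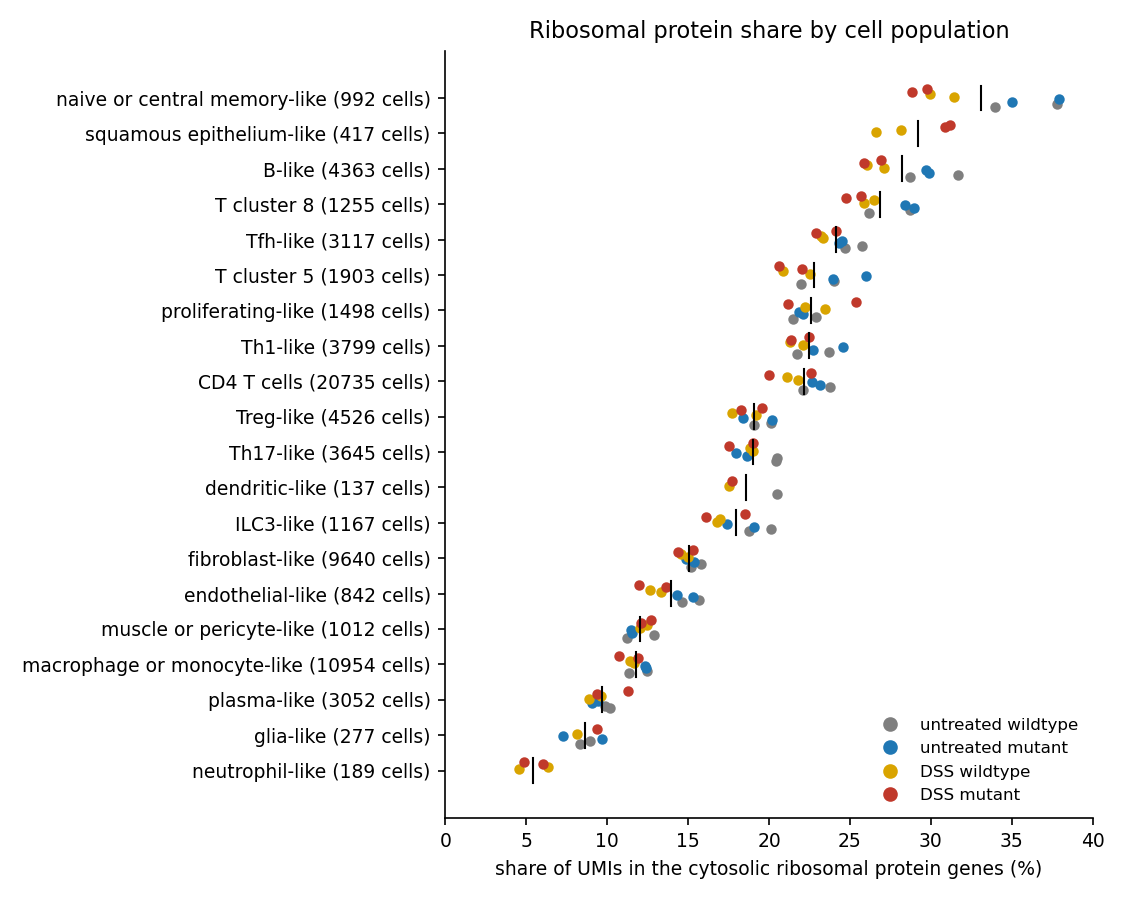
Share of all UMIs (%, x axis) that fell in the ribosomal protein genes, by cell population (y axis), with 1 point per library coloured by group. Naive-like, squamous-epithelium-like (DSS libraries only) and B-like cells lie at the top, with means of 33.1%, 29.2% and 28.2%, and plasma-like and neutrophil-like cells at the bottom, with 9.71% and 5.43%.

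Nearly every ribosomal protein gene was higher in naive-like than in Th17-like T cells. In edgeR's quasi-likelihood test with the library as a block, 76 of 77 tested genes were higher and 1 was lower at a Benjamini-Hochberg adjusted p under 0.05. Over all 5324 genes tested, 45.2% were called (23.1% higher and 22.2% lower). The median log2 fold change was 1.02, against 0.0341 over all genes. The 5 highest were Rps19, Rps20, Rpl12, Rps29 and Rps27.

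Rps19, whose loss causes an inherited anaemia, was measured at 5459 CPM (lowest), 6283 (median) and 7492 (highest) in the 8 naive-like samples. It had 2298, 2604 and 2813 CPM in the 8 Th17-like samples. The groups did not overlap, and the log2 fold change was 1.60 ± 0.0771 (SE, n = 8 pairs, edgeR adjusted p = 2.66e-23). Rps20, of the small subunit, ranged from 5903 to 8466 CPM in naive-like and from 2648 to 3305 in Th17-like samples (log2 fold change 1.54). Rpl12, at the base of the stalk that binds elongation factors, ranged from 6275 to 9351 CPM and from 3232 to 3920 CPM (1.41). All 3 genes were thus higher in the lowest naive-like sample than in the highest Th17-like sample.

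The difference was not equal between genes. Small-subunit genes had a median log2 fold change of 1.15 and large-subunit genes of 0.98. Among genes with other roles, Rpl5 (1.37), which with Rpl11 and the 5S ribosomal RNA can bind Mdm2, had a larger log2 fold change than Rpl11 itself (0.78). The stalk genes Rplp1 (1.34), Rplp2 (1.07) and Rplp0 (1.02) were higher, as were Rps6 (1.17), the target of the S6 kinases, and Rps27a (1.17), made as a fusion with ubiquitin. Rpsa, also known as the laminin receptor precursor, was higher by 1.05 and Rpl22, which is needed in the development of αβ T cells, by 0.84. Rpl10 (0.76), which joins the large subunit late, and Rpl13a (0.67), known for a role in translational silencing, were at the low end of these. The X-linked Rps4x (1.31), Rpl3 (1.03) and the exit tunnel protein gene Rpl39 (0.90) were higher as well. Rps27l was the only gene called lower (log2 fold change -0.42 ± 0.12, SE, edgeR adjusted p = 0.00315).

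**Figure D2:**
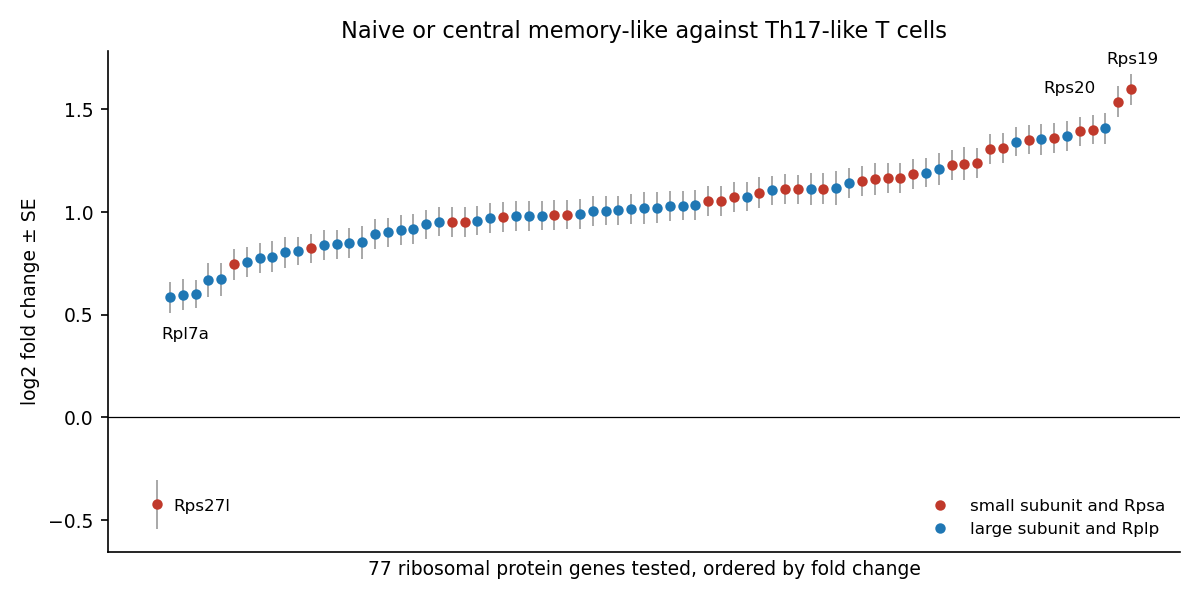
Log2 fold change ± SE (y axis) of the 77 tested ribosomal protein genes between naive-like and Th17-like T cells, ordered by size (x axis). Rps19 is highest at 1.60, and Rps27l stands alone below 0 at -0.42.

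Other genes of translation moved in part, in a comparison in which 45.2% of all genes were called (23.1% higher and 22.2% lower). Of 23 translation factors and other TOP genes tested, 16 were higher and 0 lower in naive-like cells (median 0.526), among them the elongation factor genes Eef1b2 (1.18), Eef1g (1.07) and Eef1a1 (0.72) and Tpt1 (0.76). Of 7 ribosome-associated genes outside the symbol rule, 6 were higher, including Rps3a1 (1.07), which encodes the small-subunit protein S3A, Rpl22l1 (1.09), Fau (0.71) and Rack1 (0.76). Of 26 ribosome assembly genes, 11 were higher and 2 lower (median 0.247), with Nop14 at 1.04 and Npm1, the nucleolar chaperone nucleophosmin, at 0.70. The mitochondrial ribosomal protein genes, which build the separate ribosome of mitochondria, did not share the pattern of the cytosolic ones: 6 were higher and 8 lower of 55 (median -0.0158), with Mrpl30 at 1.17 and Mrpl33 at -0.84. Of 6 genes of growth signalling, 3 were higher: Eif4ebp2 (0.63), Larp1 (0.52) and Rps6kb1 (0.40).

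The size of the naive-like difference depended on the scaling, and its direction did not in any setting run. Scaled to library totals only, the median was 0.723 with all genes at -0.257, and with DESeq2 it was 0.948 with all genes at 0.364. Median UMIs per cell were 1701 to 2599 in naive-like and 1734 to 2731.5 in Th17-like cells, with 71 to 254 and 208 to 979 cells per library.

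Treg-like and Th17-like cells had like total shares and differed gene by gene. Of 77 genes, 4 were higher and 38 lower in Treg-like cells (35.6% of all genes were called, 16.7% higher and 18.9% lower), with a median log2 difference of -0.0973. The genes called higher were Rps27l (0.24), Rpsa (0.19), Rpl39 (0.18) and Rplp1 (0.11). Among the lowest were Rpl13a (-0.41), Rps25 (-0.34), Rpl10 (-0.30) and Rpl21 (-0.27). Rpl13a ranged from 226.8 to 345.2 CPM in the 8 Treg-like and from 278.1 to 421.9 in the 8 Th17-like samples, and Rps25 from 1228 to 1464 and from 1390 to 1878. Rpsa ranged from 3875 to 4511 CPM in Treg-like and from 3189 to 3813 in Th17-like samples, which did not overlap. The split depended on the scaling: with library totals only, 13 genes were higher and 13 lower. Without the library block, 11 genes were called. Among other lists, 0 of the TOP genes were higher and 7 lower, and of 70 mitochondrial ribosomal protein genes 10 were higher and 4 lower.

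On counts scaled between samples, nearly every ribosomal protein gene was higher in CD4 T cells than in macrophage-like or fibroblast-like cells, the 2 other cell types tested. Amounts per cell were not compared. Compared with macrophage-like cells, 73 of 77 genes were higher and 2 lower, in a comparison in which 79.0% of all genes were called (39.6% higher and 39.4% lower). The median log2 fold change was 0.771, against 0.0242 over all genes. The 5 highest were Rpl12 (1.30), Rps18 (1.26), Rps15a (1.22), Rpsa (1.17) and Rpl27 (1.09). Rpl12 had between 3897 and 4948 CPM in the CD4 T samples and 1193 (lowest), 1580 (median) and 1720 (highest) in the macrophage-like samples, with no overlap (SE 0.0626, edgeR adjusted p = 1.86e-10). The genes called lower were Rps27l (-0.96 ± 0.0953, edgeR adjusted p = 4.63e-07) and Rps29 (-0.14). The call of Rps29 was lost in 10 of 14 other settings, and with library totals only its log2 difference was 0.0858. Rps9 and Rps28 were not called.

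Compared with fibroblast-like cells, 74 genes were higher and 1 lower of 77 (83.6% of all genes called, 40.1% higher and 43.5% lower). The median was 0.585, against -0.0419 over all genes. The 5 highest were Rpl12 (1.13), Rpl27 (1.11), Rps26 (1.06), Rps13 (0.95) and Rps15a (0.93). Rpl12 had between 1967 and 2215 CPM in fibroblast-like samples, all under the lowest CD4 T sample. Rpl27 had between 201.6 and 379.2 CPM there and between 424.5 and 858.7 in CD4 T samples, again without overlap. Rps27l was the gene called lower, by a log2 difference of -0.25 (edgeR adjusted p = 0.00139). Rpl10 and Rpl28 were not called. Mitochondrial ribosomal protein genes split here, with 24 higher and 22 lower of 77, and against macrophage-like cells 43 were higher and 14 lower. Fibroblast-like cells had 3981 to 7976 UMIs in the median cell and macrophage-like cells 2411 to 4942, against 1946.5 to 2880 in CD4 T cells. In cells of 1500 to 5000 UMIs the share of ribosomal protein UMIs was 14.2% in fibroblast-like and 10.83% in macrophage-like cells.

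In the main fits Rps27l was called in the direction opposite to the median of the family in each of these comparisons. Rpsa, Rpl39 and Rplp1 were so too between Treg-like and Th17-like cells, and Rps29 between CD4 T and macrophage-like cells. Rps27 (ENSMUSG00000090733, chr3:90212522-90213651) and Rps27l (ENSMUSG00000036781, chr9:66946086-66949516) encode closely similar zinc-finger proteins of the small subunit, with longest coding models of 84 and 105 codons in GENCODE vM21. Rps27l is known as a p53 target. Rps27 was highest in naive-like (6549 ± 1302 CPM, SD, n = 8) and B-like cells (5916 ± 1106), and had 3031 ± 503 in Th17-like, 1668 ± 206.5 in macrophage-like and 1026 ± 207.7 in plasma-like cells. Rps27l was low where Rps27 was high, with 94.95 ± 8.53 CPM in naive-like and 133.2 ± 13.79 in B-like cells. It had 155.1 in Th17-like, 196.0 ± 20.26 in Treg-like, 248.6 ± 45 in proliferating, 240.6 ± 22.74 in plasma-like, 276.2 ± 35.34 in macrophage-like and 316.5 ± 37.31 in smooth-muscle-like cells. The mirror pattern was not complete: squamous-epithelium-like cells had 439.5 ± 49.91 CPM of Rps27l with 3144 of Rps27, and neutrophil-like cells had 63.07 ± 34.27 of Rps27l (42 UMIs in all) with 1149 of Rps27. Reads that match both paralogues cannot be assigned with certainty, and how the counting treated them was not tested.

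**Figure D3:**
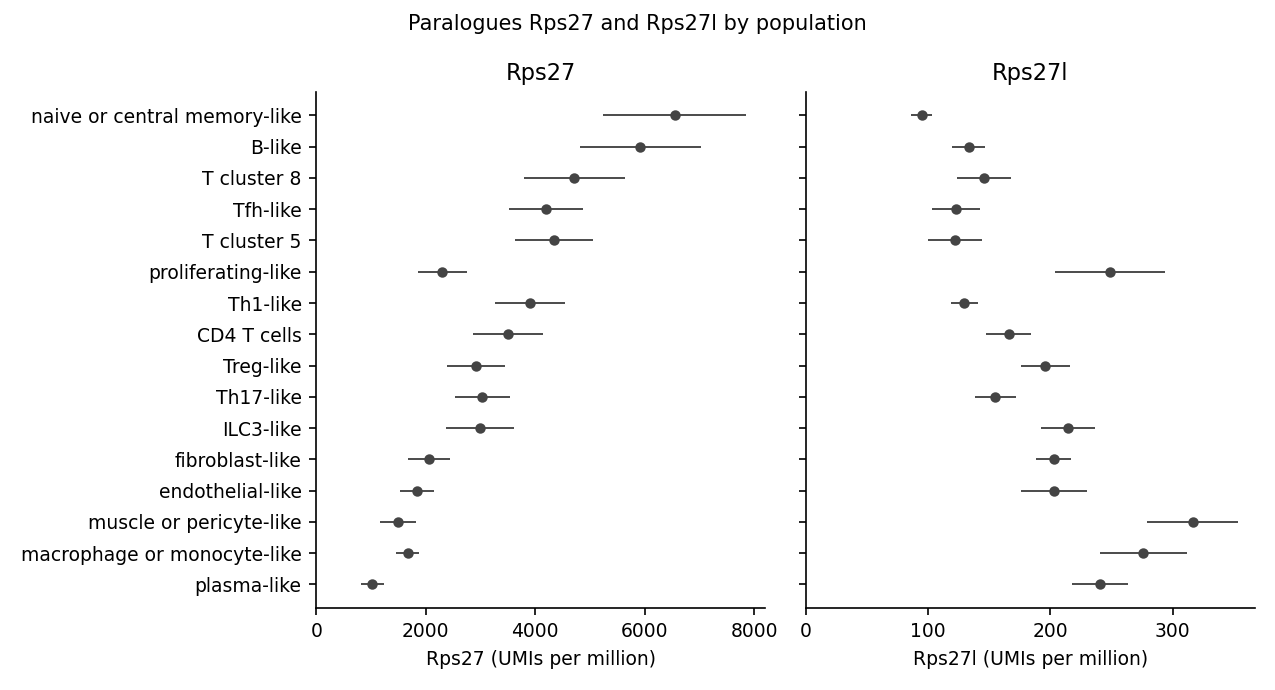
Rps27 (left) and Rps27l (right) in CPM (x axes, each from 0), by population (y axis), with the mean and SD over 8 libraries. Among the populations with all 8 libraries, Rps27 is highest and Rps27l lowest in naive-like cells, at 6549 and 94.95.

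Within the ribosomal protein pool the fraction taken by each gene also differed between populations. Over 15 populations, the ratio of the highest to the lowest fraction of ribosomal protein UMIs had a median of 1.452 over 77 genes, and for 5 genes it was over 2. Rps27l varied most (9.14-fold, from 0.0288% in naive-like to 0.263% in smooth-muscle-like cells). Next were Rpl41 (2.72-fold, from 1.17% in naive-like to 3.17% in plasma-like cells) and Rpsa (2.24-fold, from 1.22% in endothelial-like to 2.72% in proliferating cells). Rpl10 (2.19-fold) went from 0.638% in naive-like to 1.40% in plasma-like cells, and Rps27 (2.06-fold) from 1.02% in proliferating to 2.10% in B-like cells. Rps27a varied least, 1.22-fold. The endothelial-like class held only a cluster of 842 barcodes led by Ccl21a, Mmrn1 and Lyve1. A cluster of 2217 barcodes led by Fabp4, Plvap and Flt1 got no name and is not in it.

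After DSS, no ribosomal protein gene passed the test in CD4 T cells of either genotype in the main fit. In wildtype mice 0 of 78 were called, where 0.39% of all 11038 genes were, and 8 of the 78 had an unadjusted edgeR p under 0.05 (DESeq2 called 1). The median log2 difference was -0.162, with 69 of 78 values below 0. In mutant mice 0 of 78 were called, where 5.27% of all genes were. An unadjusted edgeR p under 0.05 was found for 20 (DESeq2 called 3), and the median was -0.194, with 70 values below 0. Here and below, the share of all genes at an unadjusted p under 0.05 is not given. Such counts are therefore not set against a background, and the same holds for most DESeq2 counts. The total share in CD4 T cells was 22.13% and 23.76% in untreated wildtype, 23.12% and 22.64% in untreated mutant, 21.82% and 21.12% in DSS wildtype and 19.97% and 22.58% in DSS mutant libraries. The DSS wildtype libraries lay below both untreated wildtype libraries, and the DSS mutant libraries lay below both untreated mutant libraries.

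The genes with the lowest p were Rps15a, Rpl21 and Rpl6 in wildtype and Rpl21, Rpl26 and Rps15a in mutant mice. Rps15a, of the small subunit, had 4644 and 4861 CPM in untreated wildtype, 4707 and 4368 in untreated mutant, 3651 and 3586 in DSS wildtype and 3388 and 4020 in DSS mutant libraries. All 4 DSS libraries were under all 4 untreated libraries. The log2 difference was -0.46 ± 0.117 (SE, edgeR adjusted p = 0.101, n = 2 per group) in wildtype and -0.38 ± 0.117 (edgeR adjusted p = 0.0817) in mutant mice. Rpl21 had 2642 and 2953, 2819 and 2965, 2366 and 2224, and 2204 and 2314 CPM in the same group order, also without overlap. Its log2 difference was -0.35 ± 0.115 (edgeR adjusted p = 0.158) in wildtype and -0.44 ± 0.115 (edgeR adjusted p = 0.0531) in mutant mice. Rpl6 differed by -0.42 ± 0.152 in wildtype (edgeR adjusted p = 0.188) and Rpl26 by -0.36 ± 0.105 in mutant mice (edgeR adjusted p = 0.0676). Without untreated wildtype replicate 2 the difference of Rpl6 was -0.221, and without DSS mutant replicate 1 that of Rps15a in mutant mice was -0.249. Over all cells of the authors' list the wildtype differences of Rps15a, Rpl21 and Rpl6 were -0.194, -0.148 and -0.198, and the mutant differences of Rpl21, Rpl26 and Rps15a were -0.273, -0.241 and -0.156.

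Role genes in CD4 T cells showed how far 2 libraries per group resolve. Rplp0 had 3466 and 3835 CPM in untreated wildtype, 3756 and 3790 in untreated mutant, 3767 and 2993 in DSS wildtype and 3101 and 3385 in DSS mutant libraries, so that the wildtype groups overlapped and the mutant groups did not. Rpl10 had 1545 and 1927, 1767 and 1985, 1757 and 1096, and 1552 and 1320 CPM in that order, with the lowest value in DSS wildtype replicate 2. Rps6 had 1990 and 2176, 2109 and 2204, 2244 and 2191, and 2054 and 2140 CPM, so that both DSS libraries were above the untreated ones in wildtype mice and the mutant groups overlapped. Rpl22 had 1373 and 1247, 1328 and 1218, 1381 and 1495, and 1364 and 1623 CPM, so both DSS libraries of each genotype were above its untreated libraries. Rps27l had 177.7 and 150.6, 151.8 and 134.5, 189.5 and 177.3, and 175.2 and 171.2 CPM, with the mutant groups apart and the wildtype groups overlapping (177.3 after DSS against 177.7 untreated). None of these passed the test. The libraries did not overlap and were lower after DSS for 29 of 78 genes in wildtype (19.6% of all genes) and for 36 of 78 in mutant mice (21.3% of all genes).

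The lower median after DSS depended on which cells were pooled and on how they were scaled. Over all cells of the authors' list it was 0.0509 in wildtype, with 50 values above 0 and 28 below, and -0.0324 in mutant mice. Scaled to library totals only it was -0.0956 and -0.11, with all genes at 0.0717 and 0.0946. Without DSS wildtype replicate 2 the wildtype median was -0.0974 and without untreated wildtype replicate 2 it was -0.105. Without DSS mutant replicate 2, the library that stood apart, the mutant median was -0.267, and without DSS mutant replicate 1 it was -0.106. With each T cell cluster weighted equally the medians were -0.155 and -0.218. Beside this, the haemoglobin list summed to 325.5 CPM in DSS wildtype replicate 2 and to at most 5.023 in the other libraries. The heat shock list stood at 8243, 12650, 21410 and 21500 CPM in untreated wildtype and untreated mutant libraries and at 10630, 8417, 9456 and 9539 in DSS wildtype and DSS mutant libraries. Their part in the result was not tested.

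**Figure D4:**
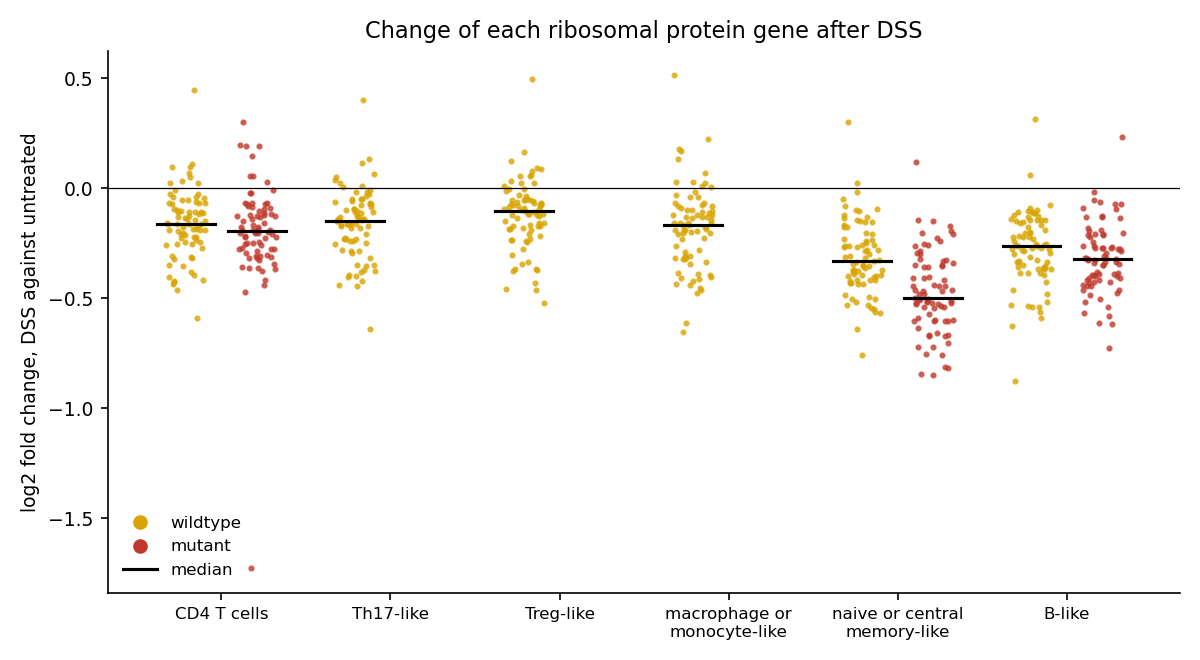
Log2 fold change after DSS (y axis) for each tested ribosomal protein gene in 6 cell populations (x axis), with wildtype and mutant points side by side where both were fitted and a line at the median. Most points lie below 0, and the lone point at -1.73 in mutant CD4 T cells is Rpl39l, with 90 UMIs and an SE of 0.856.

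Some ribosome assembly genes fell in mutant CD4 T cells after DSS. Of 40 tested, 7 fell and 0 rose (median -0.31), where 5.27% of all genes were called, among them the nucleolar genes Nop56 (-0.85, edgeR adjusted p = 0.0176) and Nop58 (-0.70, edgeR adjusted p = 0.0256). Whether assembly and ribosomal protein genes differed from each other was not tested. Of 11 heat shock genes 8 fell, while 0 TOP genes and 0 of 77 mitochondrial ribosomal protein genes were called. In wildtype mice 1 mitochondrial ribosomal protein gene was called higher and none of the assembly, TOP or heat shock genes was called in edgeR.

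Th17-like, Treg-like and macrophage-like cells gave no call after DSS in wildtype mice in the main fits either. In Th17-like cells 0 of 77 genes were called (0.111% of all genes), 14 had an unadjusted edgeR p under 0.05 (DESeq2 called 0), and the median was -0.147 with 68 of 77 below 0. Rpl35 (-0.64), Rps15a (-0.40) and Rpl6 (-0.44) had the lowest p, with edgeR adjusted p of 0.228, 0.266 and 0.294. Without DSS wildtype replicate 2, in which Rpl35 was low, its difference was -0.454, and without untreated wildtype replicate 2 that of Rpl6 was -0.265. In Treg-like cells 0 were called (0.231% of all), 8 had an unadjusted p under 0.05 (DESeq2 called 1), and the median was -0.102 with 64 below 0. The lowest p were those of Rps15a (-0.46, edgeR adjusted p = 0.152), Rpl35 (-0.52, 0.226) and Rps21 (-0.46, 0.247). Without DSS wildtype replicate 2 the Treg-like median was -0.013 and Rpl35 differed by -0.264, and without DSS wildtype replicate 1 they were -0.193 and -0.813. The median Treg-like cell had 2.75% and 2.41% mitochondrial UMIs in untreated and 3.06% and 2.84% in DSS wildtype libraries. It had 2042.5 and 2132 UMIs against 2677 and 2297. The part of this in the Treg-like result was not tested. In macrophage-like cells 0 were called (0.712% of all), 13 had an unadjusted p under 0.05 (DESeq2 called 1), and the median was -0.167 with 66 below 0. Rpl35 (-0.65), Rpl36 (-0.48) and Rpl37 (-0.46) were the lowest in p there, with edgeR adjusted p of 0.129, 0.138 and 0.162. The macrophage-like median was -0.0835 without untreated wildtype replicate 2 and -0.239 without untreated wildtype replicate 1, and Rpl35 differed by -0.468 without DSS wildtype replicate 2 and by -0.4 without untreated wildtype replicate 2. In these samples the median cell had 3.47% and 2.92% mitochondrial UMIs in untreated and 3.96% and 4.14% in DSS libraries, and 3207 and 4457.5 against 2860 and 2418 UMIs. The class joined clusters 3 and 13, in which 10.6% and 15.5% of UMIs were in ribosomal protein genes. The part of these in the result was not tested. Rps15a, named in both T cell subsets, ranged from -0.406 to -0.384 in Th17-like and from -0.526 to -0.387 in Treg-like cells over the fits that left out 1 library each.

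Naive-like T cells and B-like cells, which had the highest shares among the populations found in all 8 libraries, were fitted after their shares had been seen. In naive-like cells the share was 33.95% and 37.82% in untreated wildtype, 35% and 37.89% in untreated mutant, 31.4% and 29.96% in DSS wildtype and 28.86% and 29.75% in DSS mutant libraries. In B-like cells it was 28.68% and 31.67%, 29.91% and 29.69%, 27.1% and 26.07%, and 25.85% and 26.9% in the same order. In both populations all 4 DSS libraries lay below all 4 untreated libraries. The same held in Tfh-like cells, with 22.91% to 24.15% after DSS and 24.33% to 25.72% untreated. It also held in endothelial-like cells, with 11.97% to 13.64% after DSS and 14.32% to 15.67% untreated. Neither of these was fitted for DSS.

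**Figure D5:**
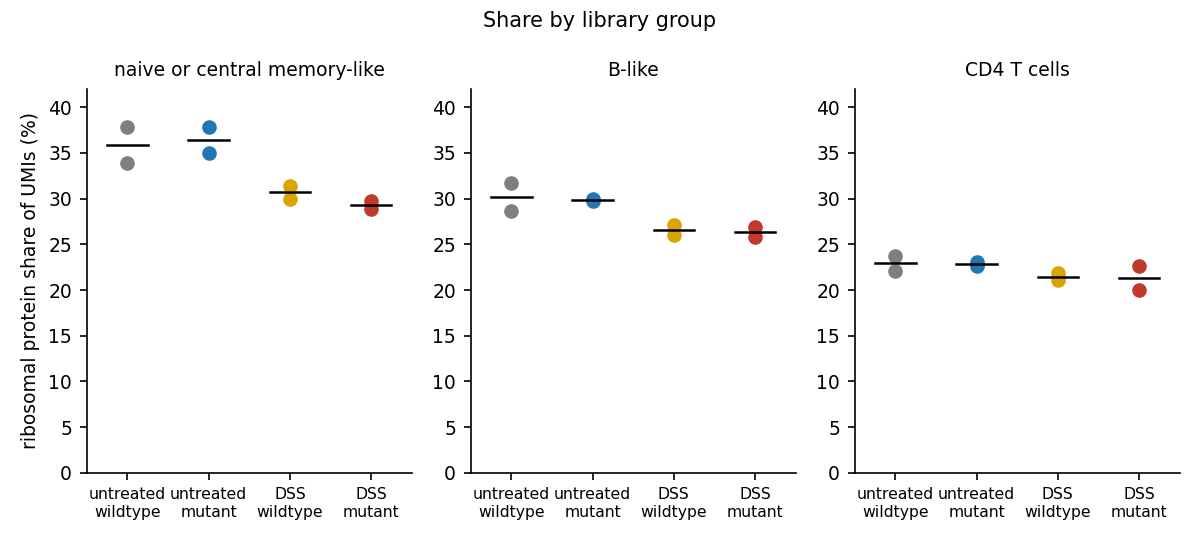
Ribosomal protein share of UMIs (%, y axis from 0) in each library by group (x axis), for naive-like T cells, B-like cells and CD4 T cells, with 1 point per library and the group mean. Naive-like DSS libraries span 28.86% to 31.4% and untreated ones 33.95% to 37.89%.

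In naive-like cells of mutant mice, 19 of 77 ribosomal protein genes fell after DSS and none rose, where 2.8% of all 3647 genes were called and 1.92% were called lower. Of the 19, 5 were of the small and 14 of the large subunit, which have 31 and 49 genes in the family. The median was -0.50, with 76 of 77 values below 0. Rpl28 had 3702 and 3537 CPM in untreated and 2396 and 2208 in DSS mutant libraries, which did not overlap (log2 fold change -0.82 ± 0.16, SE, edgeR adjusted p = 0.00901). Rpl15 had 3259 and 3467 against 2293 and 1926 CPM (-0.84 ± 0.175, edgeR adjusted p = 0.0105). Rpl10 had 2402 and 2944 against 1896 and 1472 CPM (-0.85 ± 0.214, edgeR adjusted p = 0.0301). Rps7 (-0.81) and Rpl10a (-0.76) completed the 5 lowest, and Rplp0 (-0.75, edgeR adjusted p = 0.0143), Rps15a (-0.72, edgeR adjusted p = 0.012), Rpl11 and Rps4x (edgeR adjusted p = 0.035) were among the others. Rplp0 had 5743 and 6352 CPM in untreated and 4396 and 3683 in DSS mutant libraries.

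The count in mutant naive-like cells changed with the libraries in the fit, as did the count over all genes. Without DSS mutant replicate 2, which stood apart, 0 genes were called (3 of all genes), without untreated mutant replicate 2 it was 1 (of 34), and without DSS mutant replicate 1 it was 6 (of 58). With every library it was 19 of 102. Without untreated wildtype replicate 1 or 2, which are not in the contrast but enter the fit, 35 and 34 were called (of 156 in each), and DESeq2 called 38 (of 67). The median without DSS mutant replicate 2 was -0.565, with 77 of 77 values below 0. Rpl10 and Rpl15, low in that library, then differed by -0.727 and -0.783.

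In naive-like cells of wildtype mice 0 of 77 genes were called (0.11% of all genes at an adjusted p under 0.05). The median was -0.331 with 75 of 77 below 0. At an unadjusted edgeR p under 0.05 there were 37 (DESeq2 called 1). The share of all genes at that cut-off is not given here. Rps15a had 7047 and 7788 CPM in untreated and 5113 and 5053 in DSS wildtype libraries, with no overlap (-0.64 ± 0.153, SE, edgeR adjusted p = 0.0832). Rpl28 (-0.55, edgeR adjusted p = 0.198) and Rpl35 (-0.76, edgeR adjusted p = 0.226) followed. The difference of Rpl35 was -0.347 without untreated wildtype replicate 2, -0.43 without DSS wildtype replicate 2 and -1.2 without DSS wildtype replicate 1. The median ranged from -0.458 to -0.227 over the fits that left out 1 library each. Whether the DSS effect differed between genotypes in naive-like or B-like cells was not tested. Libraries were lower after DSS without overlap for 51 of 77 genes in wildtype (13.9% of all genes) and for 61 of 77 in mutant naive-like cells (14.1% of all genes).

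Other measures moved with DSS in the naive-like cells. The mutant libraries held 103 and 79 such cells untreated and 71 and 254 after DSS. Their median cell had 2599 and 2398 UMIs untreated and 1701 and 2239 after DSS. In wildtype libraries it had 1973.5 and 2215.5 against 1970 and 1734 UMIs. The naive T cell list summed to between 4397 and 4892 CPM in untreated and between 4690 and 5720 in DSS libraries. The Treg list went from between 580.5 and 774.6 to between 926.1 and 1055 CPM, and the Th17 list from between 22.5 and 34.12 to between 46.23 and 99.07. Mitochondrially encoded genes summed to between 31990 and 37520 CPM in untreated and between 37680 and 43890 in DSS libraries. The heat shock list had 14850 and 14200 CPM in untreated mutant and 8395 and 9981 in DSS mutant libraries, where 6 of its 11 genes fell. The part of these measures in the lower ribosomal protein counts was not tested.

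In B-like cells, 2 of 77 genes fell after DSS in wildtype mice (1.36% of all 6910 genes called, 0.521% lower) and 13 fell in mutant mice (9.65% called, 5.18% lower), with none higher. In wildtype mice these were Rpl35, with 1485 and 1985 CPM in untreated and 1176 and 843.2 in DSS libraries (-0.87 ± 0.173, SE, edgeR adjusted p = 0.00729), and Rps15a, with 5583 and 6037 against 4112 and 3889 CPM (-0.63 ± 0.14, edgeR adjusted p = 0.0198). Neither gene's groups overlapped. The lowest in mutant mice were Rpl15 (-0.73 ± 0.155, edgeR adjusted p = 0.00337), Rpl28 (-0.62, 0.00586), Rpl10 (-0.61, 0.0307), Rpl35 (-0.58) and Rplp0 (-0.57, 0.0151). Rpl15 had 2766 and 2811 CPM in untreated and 1989 and 1706 in DSS mutant libraries. Of the 13 genes, 2 were of the small and 11 of the large subunit, which have 31 and 49 genes in the family. The medians were -0.261 in wildtype and -0.321 in mutant mice. Without DSS wildtype replicate 2, Rpl35 differed by -0.629 in wildtype mice, and without DSS mutant replicate 2, Rpl15 and Rpl10 differed by -0.641 and -0.486 in mutant mice.

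These counts too were unstable. In wildtype B-like cells 0 genes were called without untreated wildtype replicate 2 or DSS wildtype replicate 2 (13 and 6 of all genes), 5 without untreated wildtype replicate 1 or DSS wildtype replicate 1 (of 94 and 121), and 6 with DESeq2 (of 55). In mutant B-like cells 1 was called without either untreated mutant library (of 237 and 201), 2 without either DSS mutant library (of 261 and 243), 24 without either untreated wildtype library (of 654 and 685) and 27 with DESeq2 (of 218). Lower without overlap were 44 of 77 genes in wildtype (16.4% of all genes) and 56 of 77 in mutant mice (18.5% of all genes). Beside these, 7 of 23 TOP genes and 9 of 70 mitochondrial ribosomal protein genes fell in mutant B-like cells. Mitochondrially encoded genes summed to between 39670 and 45130 CPM in untreated and between 43590 and 52390 in DSS libraries, and the B cell list to between 3428 and 3582 and between 3260 and 3506 CPM.

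The mutant allele gave no call among the ribosomal protein genes in any population tested. In CD4 T cells of untreated mice 0 of 78 were called (0.0% of all genes), with 0 at an unadjusted edgeR p under 0.05 and 0 with DESeq2, and the median was -0.00488 (-0.0627 to 0.039 with 1 library left out). Rps27l (-0.19, edgeR adjusted p = 0.963), Rpl41 (-0.21, 0.977) and Rpl24 (-0.11, 0.978) had the lowest p. With 1 library left out they ranged from -0.305 to -0.0799, from -0.339 to -0.101 and from -0.192 to -0.0313. The smallest sizes came without untreated wildtype replicate 1 for Rps27l, untreated mutant replicate 2 for Rpl41 and untreated wildtype replicate 2 for Rpl24. After DSS 0 were called (0.0% of all), with 2 at an unadjusted p under 0.05 and 0 with DESeq2, and the median was -0.0779 with 58 of 78 below 0 (-0.0128 without DSS wildtype replicate 1, -0.0294 without DSS mutant replicate 1 and -0.111 without DSS wildtype replicate 2). The lowest p were those of Rpl38 (0.49 ± 0.198, SE), Rps29 (0.47) and Rpl35 (0.47), each with an edgeR adjusted p of 1. Rpl38, a large-subunit protein known for its role in the translation of Hox messenger RNAs, had 1842 and 1726 CPM in DSS wildtype and 1959 and 3094 in DSS mutant libraries. Rps29 had 3319 and 3047 against 3435 and 5481 CPM. Without DSS mutant replicate 2 the differences of Rpl38, Rps29 and Rpl35 were 0.124, 0.0991 and 0.188, and without DSS wildtype replicate 2 that of Rpl35 was 0.239. Without DSS mutant replicate 1 those of Rpl38 and Rps29 were 0.781 and 0.77, and without DSS wildtype replicate 1 that of Rpl35 was 0.765. The libraries did not overlap and were lower in mutant mice for 20 of 78 genes after DSS (10.2% of all genes) and for 2 of 78 in untreated mice (17.6%). The difference of the DSS effects between genotypes (interaction) called 0 (0.0% of all; 0 at an unadjusted edgeR p under 0.05, 0 with DESeq2), with Rpl38 (0.48), Rpl41 (0.42) and Rpl12 (-0.24) lowest in p at an edgeR adjusted p of 0.9995. Without DSS mutant replicate 2, Rpl38 was at 0.11 and Rpl41 at -0.0132. Rpl12 ranged from -0.323 to -0.151, the latter without untreated wildtype replicate 1.

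In untreated Th17-like cells all 77 tested genes had a value below 0 in the mutant, with a median log2 difference of -0.192. None was called (0.0968% of all genes were), 12 had an unadjusted edgeR p under 0.05 and DESeq2 called 0. The share of all genes at the unadjusted cut-off is not given here. The share was 20.46% and 20.51% in wildtype and 18.65% and 17.97% in mutant libraries. Rps12 (-0.31, edgeR adjusted p = 0.728), Rps24 (-0.26, 0.743) and Rpl27a (-0.27, 0.761) had the lowest p. With 1 library left out Rps12 ranged from -0.42 (without untreated wildtype replicate 2) to -0.198 (without untreated wildtype replicate 1). In the same samples 5 of 11 heat shock genes were higher in the mutant (median 1.23), and the list summed to 7771 and 13430 CPM in wildtype and to 23730 and 22530 in mutant libraries. The part of this in the lower share was not tested.

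The remaining comparisons between genotypes had no call. After DSS, Th17-like cells had 0 called (0.0% of all), 4 at an unadjusted edgeR p under 0.05, 0 with DESeq2 and a median of -0.126, with Rpl38 (0.50), Rps29 (0.41) and Rps27 (0.35) lowest in p. Treg-like cells had 0 called in untreated mice (0.0% of all; 0 at an unadjusted edgeR p under 0.05, 0 with DESeq2; median -0.048) and 0 after DSS (0.0% of all; 4 and 0; median -0.0339), the latter headed by Rpl35 (0.56), Rpl38 (0.51) and Rps29 (0.52). Macrophage-like cells had 0 called in untreated mice (0.0% of all; 0 and 0; median 0.052) and 0 after DSS (0.0% of all; 1 and 0; median -0.116), with Rpl27 (-0.42), Rps29 (0.34) and Rpl38 (0.31) lowest in p after DSS. Rpl38 and Rps29, above 0 in each of these lists after DSS, were among the genes high in DSS mutant replicate 2. Without it they differed by 0.117 and 0.108 in Th17-like, 0.188 and 0.182 in Treg-like and 0.211 and 0.191 in macrophage-like cells, Rps27 by 0.0402 in Th17-like and Rpl35 by 0.352 in Treg-like cells. Without DSS mutant replicate 1, Rpl38 and Rps29 differed by 0.796 and 0.653 in Th17-like and by 0.782 and 0.795 in Treg-like cells. Rpl27, high in DSS wildtype replicate 2, differed by -0.13 in macrophage-like cells without that library and by -0.651 without DSS wildtype replicate 1. The medians changed sign when 1 library was left out in Treg-like cells of untreated mice (-0.133 to 0.0262) and after DSS (-0.117 to 0.0702), and in macrophage-like cells of untreated mice (-0.033 to 0.16) and after DSS (-0.287 to 0.0297). In Th17-like cells after DSS the median stayed between -0.148 and -0.104.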

How the data were processed

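Gene-by-barcode counts were deposited by the authors for each library. The submitters' processing notes name Cell Ranger 3.1.0, Seurat 4.0.1 and mm10, with no parameters, and how reads that match several genes were treated is not given in the sources used here. The protocol aimed at 10000 cells and 20000 reads per cell. From these counts, barcodes with at least 400 genes and under 20% mitochondrial UMIs were kept. They were clustered with scanpy 1.11.5 and leidenalg 0.10.2 (2000 variable genes without the ribosomal protein genes, 30 components, 15 neighbours, resolution 1, 32 clusters) and named from marker lists. That a cluster's leading genes must not go against its name was applied after the clusters were seen. Scrublet marked no doublets, so its calls were not used and doublets stayed in, and removing the 5% highest scores was added as an alternative.

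Counts were summed per library and population and tested with edgeR 4.0.16 (R 4.3.3; quasi-likelihood, TMM, filterByExpr, Benjamini-Hochberg over all genes at 0.05). All 8 libraries entered 1 fit between groups, and the library was the block between populations. Promoter windows came from RefSeq on GRCm38.p6. Shares of UMIs got no test. With 2 libraries per group, an exact permutation test of a single value cannot reach 0.05. Between groups, p-values set a difference against the spread within groups, estimated over all 8 libraries. Between populations they set it against the spread left after the library block. The scripts were tested on simulated counts. Genes were named by role, by the 5 highest and 5 lowest called, or, with none called, by the 3 lowest p; the genes of the promoter windows and of the library that stood apart were chosen after their values were seen. Of the genes that this rule names, 1 is not reported here. The ribosomal protein genes and the other lists were chosen with earlier results of these data known. The naive-like and B-like DSS fits were added after the shares were seen. Alternatives were DESeq2 1.42.0, other scalings and filters, other pools of cells and each library left out.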

Additional observations from a re-analysis of the deposited data

How the results depend on the processing

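Leaving out each library in turn gave 0 called genes in wildtype CD4 T cells after DSS, 0 to 1 in mutant CD4 T cells (1 higher without DSS mutant replicate 1), 0 to 2 in wildtype and 0 to 35 in mutant naive-like cells, 0 to 5 in wildtype and 1 to 24 in mutant B-like cells, and 34 to 47 between Treg-like and Th17-like cells. After DSS, DESeq2 called 1 gene in wildtype and 3 in mutant CD4 T cells, 1 in Treg-like, 1 in macrophage-like, 1 in wildtype and 38 in mutant naive-like, and 6 and 27 in B-like cells. Without a filter on low counts the numbers were 8 (1 higher, 7 lower) and 4 in CD4 T cells, 1 in Th17-like, 1 in Treg-like, 2 in macrophage-like, 10 and 29 in B-like cells and 27 between Treg-like and Th17-like cells. T cell clusters on or off the authors' list gave 3 in mutant CD4 T cells. With library totals only, 26 genes were called between Treg-like and Th17-like cells, where 35.6% of all genes were called in the main fit. Counts over all genes in these fits are not given here, so the numbers show only how the calls moved. The cause was not tested in any of these.

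The median over cells gave shares of 20.59% in CD4 T, 14.39% in fibroblast-like, 9.97% in macrophage-like, 17.58% in Th17-like and 17.37% in Treg-like cells. Without the 5 most counted genes the shares were 19.42%, 13.27%, 10.41%, 16.78% and 16.71% in that order, and 28.89% in naive-like cells. In cells of 1500 to 5000 UMIs they were 14.2% in fibroblast-like and 10.83% in macrophage-like cells, and without the 5% highest doublet scores 11.14% in macrophage-like cells.

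Among single genes named in the report, differences that changed sign were those of Rpl41 in the interaction (0.42 with all libraries, -0.0132 without DSS mutant replicate 2 and 0.747 without DSS mutant replicate 1), Rpl35 in macrophage-like cells of untreated mice (0.18 with all libraries, -0.0408 without untreated wildtype replicate 1 and 0.424 without untreated wildtype replicate 2) and Rps29 between CD4 T and macrophage-like cells (0.0858 with library totals only).

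The titles carry numbers, read here as animal numbers, that differ in every library. A replicate block by neighbouring numbers, which nothing in the labels says pairs the animals, gave 0 called ribosomal protein genes in each of the 8 comparisons of mutant with wildtype mice and in the interaction. Each such block held a single treatment, so DSS could not be compared with untreated within blocks. DSS wildtype replicate 2 and DSS mutant replicate 2, the libraries that stood apart, have neighbouring numbers. With no replicate block, 72 genes were called between CD4 T and macrophage-like and 75 between CD4 T and fibroblast-like cells. It was 77 between naive-like and Th17-like and 11 between Treg-like and Th17-like cells. With the block, 79.0%, 83.6%, 45.2% and 35.6% of all genes were called in these comparisons. The shares of all genes without the block are not given here. Removal of barcodes that the doublet caller marked was not run, since it marked none.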
